A study of Mus musculus with 9 samples.

Results

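The 9 transcriptional regulators of hematopoietic stem cells examined here, Mecom, Prdm16, Gata2, Erg, Hoxa9, Meis1, Mllt3, Hlf and Tcf15, were followed in single-cell transcriptomes of mouse bone marrow. They were chosen by gene symbol, with earlier results of these data known. Each symbol matched 1 of the 31053 features counted, which gave 9 members. The cells were LSK cells (Lin- cKit+ Sca1+), the sorted fraction of bone marrow that holds stem cells and multipotent progenitors. They came from C57BL/6 mice in 3 groups of 3 samples. Young mice were 10 to 12 weeks old and aged mice were over 80 weeks old, and both received the carrier cyclodextrin alone. The CASIN group was also over 80 weeks old and received CASIN, an inhibitor of the activity of the small RhoGTPase Cdc42, at 25 mg/kg in cyclodextrin by i.p. injection every 24 h for 4 days. Cells were viably frozen and thawed before they were loaded for 3′ single-cell RNA sequencing, 1 library per sample. The labels do not say whether a sample was 1 mouse or a pool, so p-values measure the spread between these samples, which may in part be technical. Young samples 1 and 2, aged sample 1 and CASIN samples 1 and 2 formed sequencing batch 1, and young sample 3, aged samples 2 and 3 and CASIN sample 3 formed batch 2. The comparisons asked how the members differed with age, how they differed after CASIN in aged mice, and how they were distributed along stem, multipotent and lineage-primed subsets of LSK cells.

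Long-lived blood stem cells are maintained by a network of DNA-binding proteins and cofactors that keep the self-renewal program on and hold lineage programs back. Several of them occupy the same enhancers as a complex that joins GATA, ETS and bHLH factors, whereas HOX proteins bind DNA together with partners such as the MEIS proteins. Many of these genes are also known from leukemia, in which they are translocated or remain switched on. Mecom (which encodes EVI1) and Prdm16 are related zinc finger proteins of the PRDM family and are needed for the maintenance of stem cells. Gata2 is a zinc finger factor of stem and progenitor cells, and Erg is a member of the ETS family. Hoxa9 is a homeodomain protein of early progenitors, Meis1 is its DNA-binding partner, and Mllt3 (AF9) reads acylated histones and belongs to complexes that promote transcription elongation. Hlf is a bZIP factor of the PAR family, and Tcf15 is a bHLH factor associated with quiescent stem cells.

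The members are spread over 6 chromosomes of GRCm38. Mecom lies on chromosome 3 (29951296 to 30548008), Mllt3 (87769925 to 88033364) and Prdm16 (154316125 to 154636873) on chromosome 4, Gata2 (88193891 to 88207032) and Hoxa9 (52223100 to 52231089) on chromosome 6, Hlf (90336536 to 90390895) and Meis1 (18879817 to 19018985) on chromosome 11, Erg (95359169 to 95586593) on chromosome 16 and Tcf15 (152143561 to 152149097) on chromosome 2. Gata2 and Tcf15 are on the plus strand and the other members on the minus strand. Mecom overlaps 5 other annotated genes on its own strand, Meis1 3 and Hoxa9 1, by their whole spans. Reads in the shared stretches may therefore not be counted for the member. A count of 3′ ends gives 1 value per gene and cannot tell transcripts from different start sites apart, which matters for Mecom and Prdm16, whose long and short forms differ in the PR domain.

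RefSeq windows of 300 bases, from 250 bases before to 50 bases after an annotated start, were found for 8 members (13 windows, GRCm38.p6). The windows of Mecom and Prdm16 are shown because these are the 2 related PRDM genes, and those of Gata2 and Mllt3 because, with Prdm16, they passed the test between aged and young stem-like cells. Each is written 5′ to 3′ on the strand of its gene. Capitals mark matches, on either strand, to a GATA-factor motif spelled AGATAA, an ETS motif spelled CCGGAA, a MEIS motif spelled TGACAG, an E-box spelled CAGATG or a PAR bZIP motif spelled TTANGTAA, which are 5 of 14 motifs searched. The others, searched on both strands but not marked, were the core of the first motif (which it overlaps), a shorter ETS core spelled GGAAG, a KLF-type box spelled CCACACCC, an AP-1 motif spelled TGANTCA, a CRE spelled TGACGTCA with its overlapping core spelled TGACGT, a RUNX motif spelled TGTGGT, an SRF motif and the promoter box spelled CCAAT.
Mecom, chr3:30509710-30510009, strand minus: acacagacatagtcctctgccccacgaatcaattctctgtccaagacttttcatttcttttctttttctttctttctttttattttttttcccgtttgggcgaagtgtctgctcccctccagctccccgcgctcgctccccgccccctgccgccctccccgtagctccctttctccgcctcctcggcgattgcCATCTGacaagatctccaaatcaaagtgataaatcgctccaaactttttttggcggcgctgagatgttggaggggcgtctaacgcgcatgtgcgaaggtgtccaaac
Mecom, chr3:30013155-30013454, strand minus: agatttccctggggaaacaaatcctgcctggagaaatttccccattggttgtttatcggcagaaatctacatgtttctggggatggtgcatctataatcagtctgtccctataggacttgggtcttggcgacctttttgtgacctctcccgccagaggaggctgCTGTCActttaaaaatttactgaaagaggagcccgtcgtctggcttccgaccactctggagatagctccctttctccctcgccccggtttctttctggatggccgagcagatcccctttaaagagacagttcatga
Prdm16, chr4:154636824-154637123, strand minus: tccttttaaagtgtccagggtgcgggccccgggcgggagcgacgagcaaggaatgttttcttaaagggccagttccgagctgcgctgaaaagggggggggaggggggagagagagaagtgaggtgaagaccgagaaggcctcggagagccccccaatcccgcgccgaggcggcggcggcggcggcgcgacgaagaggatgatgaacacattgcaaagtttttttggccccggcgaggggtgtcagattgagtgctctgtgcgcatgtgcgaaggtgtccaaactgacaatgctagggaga
Gata2, chr6:88193641-88193940, strand +: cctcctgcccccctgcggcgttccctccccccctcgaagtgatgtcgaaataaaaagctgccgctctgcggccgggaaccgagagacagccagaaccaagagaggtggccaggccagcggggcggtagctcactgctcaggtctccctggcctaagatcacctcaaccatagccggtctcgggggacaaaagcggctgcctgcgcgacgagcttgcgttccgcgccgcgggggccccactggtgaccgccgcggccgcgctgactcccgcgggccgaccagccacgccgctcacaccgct
Gata2, chr6:88198414-88198713, strand +: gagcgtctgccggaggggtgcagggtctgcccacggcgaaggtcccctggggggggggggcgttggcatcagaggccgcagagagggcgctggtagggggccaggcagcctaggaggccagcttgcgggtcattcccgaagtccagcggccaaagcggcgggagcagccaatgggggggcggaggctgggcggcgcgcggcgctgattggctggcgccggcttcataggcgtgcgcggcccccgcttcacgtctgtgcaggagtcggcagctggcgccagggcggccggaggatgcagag
Mllt3, chr4:88033358-88033657, strand minus: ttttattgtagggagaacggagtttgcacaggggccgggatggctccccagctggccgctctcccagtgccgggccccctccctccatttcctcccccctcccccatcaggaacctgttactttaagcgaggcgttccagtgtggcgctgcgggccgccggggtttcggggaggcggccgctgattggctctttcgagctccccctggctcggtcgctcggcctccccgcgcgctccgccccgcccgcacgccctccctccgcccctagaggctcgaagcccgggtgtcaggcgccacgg
Mllt3, chr4:87806274-87806573, strand minus: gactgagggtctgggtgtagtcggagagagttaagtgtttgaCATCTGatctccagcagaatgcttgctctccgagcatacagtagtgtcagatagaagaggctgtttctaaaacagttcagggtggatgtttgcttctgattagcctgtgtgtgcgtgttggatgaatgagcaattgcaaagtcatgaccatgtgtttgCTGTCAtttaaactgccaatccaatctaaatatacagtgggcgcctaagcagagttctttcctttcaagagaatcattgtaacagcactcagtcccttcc
An E-box was found in the upstream window of Mecom and in the downstream window of Mllt3, and a MEIS motif in the downstream windows of both genes. The windows of Gata2 and Prdm16 held none of the 5 motifs. Of all 32851 promoter windows, 11.2% held AGATAA, 14.9% CCGGAA, 19.2% TGACAG, 17.2% CAGATG and 2.32% TTANGTAA. The upstream Mecom window and the Prdm16 window shared a run of 24 bases downstream of their starts, which 2 of the 32851 promoter windows held:
Shared run: gcgcatgtgcgaaggtgtccaaac

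The filters kept 15856 of 32387 barcodes, 1112 to 2417 cells per sample, with 17555578 to 35118707 UMIs (unique molecular identifiers, counted RNA molecules) in the kept cells of a sample. Kept cells had a median of 9531.5 to 14622 UMIs per sample. Between 31.6% and 38.4% of the barcodes were kept in the samples of batch 2 and between 56.4% and 86.2% in the samples of batch 1. The median share of mitochondrial UMIs was 5.03% to 7.0% in batch 2 and 2.65% to 3.49% in batch 1. Pairs of libraries shared at most 16 cell barcodes. That pair was young samples 1 and 2, for which 0.697 were expected at random. In all, 125 kept cells (0.788%) had a shared barcode, and the cause was not tested. Kit and Ly6a, the genes of the sort markers cKit and Sca1, together held 219 to 406 CPM (the count of a gene per 1000000 UMIs of the sample or class), and the 5 genes of the lineage antibodies 4.19 to 12.2 CPM. All 9 members were counted in every sample.

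Clusters were made without the 9 members, and 3 classes were named by other marker genes. Stem-like cells (4936 cells) made up 22.4% ± 1.44 (SD, n = 3) of young, 34.0% ± 10.7 of aged and 38.0% ± 2.73 of CASIN cells. Of them, 843 formed a cluster led by MHC class II genes. The larger stem-like cluster was led by Nupr1, Ramp2, Sult1a1, Cavin2, Meg3, Apoe and Pdzk1ip1 among others. Cavin2 is also among the marker genes listed for megakaryocyte-primed cells. Multipotent-like cells (4387) were led by Rgs1, Ctla2a and Cd34 among others, and lymphoid-primed-like cells (2604) by Wfdc17, Dntt, Ccl3 and Satb1 among others. The stem-like share of aged sample 1, 46.3%, stood above the 28.9% and 26.9% of the other aged samples. Since a cluster is cut from the same cells that it describes, levels in one class against another are given as descriptions without a test.

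Mecom, Prdm16, Gata2, Mllt3 and Tcf15 fell along one gradient. For each of these 5 members, the CPM was highest in stem-like, lower in multipotent-like and lowest in lymphoid-primed-like cells in 9 of 9 samples. The stem-like level exceeded the lymphoid-primed-like level 27.2-fold for Tcf15 (geometric mean over samples, range 7.57 to 71.6), 7.43-fold for Mllt3 (3.43 to 17.9), 7.12-fold for Gata2 (5.30 to 9.83), 4.43-fold for Prdm16 (2.47 to 10.2) and 3.00-fold for Mecom (1.88 to 5.13). Tcf15 was close to its counting limit in lymphoid-primed-like cells, at 0.306 to 3.37 CPM. Between stem-like and multipotent-like cells, the fold was 4.02 for Tcf15, 3.28 for Mllt3, 2.23 for Prdm16, 2.08 for Gata2 and 1.75 for Mecom.

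Hoxa9 ran the opposite way. It was highest in lymphoid-primed-like cells in 9 of 9 samples, at 124 CPM ± 17.3 (SD, n = 9) against 79.6 ± 21.5 in stem-like and 80.9 ± 14.1 in multipotent-like cells, a level 1.59-fold that of stem-like cells. Stem-like and multipotent-like cells did not keep an order for Hoxa9, since stem-like cells were higher in 4 samples and lower in 5. Erg was higher in stem-like than in lymphoid-primed-like cells in 9 of 9 samples and higher than in multipotent-like cells in 8, by 1.55-fold and 1.21-fold.

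The order of Hlf and Meis1 followed the sequencing batch. Hlf was higher in stem-like than in multipotent-like cells in all 5 samples of batch 1 (1.5-fold) and lower in all 4 samples of batch 2 (0.807-fold), while it exceeded the lymphoid-primed-like level in 9 of 9 samples. Meis1 was higher in stem-like than in lymphoid-primed-like cells in 5 of 5 samples of batch 1 (2.06-fold) and in 2 of 4 of batch 2 (0.948-fold). In the plot of levels by class, the Hlf lines of batch 2 rise from stem-like to multipotent-like cells, where those of batch 1 fall.

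**Figure D1:**
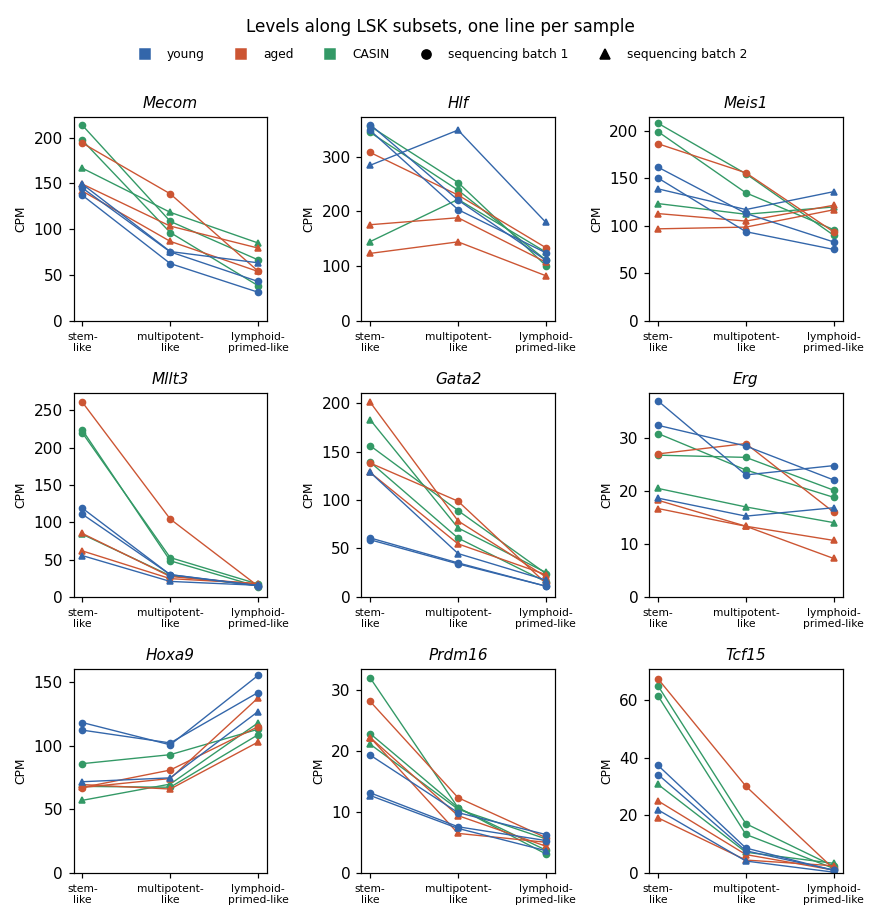
CPM of each member (vertical axis, from 0) in stem-like, multipotent-like and lymphoid-primed-like cells (horizontal axis), with the points of 1 sample joined by a line. Tcf15, Mllt3, Gata2, Prdm16 and Mecom fall from left to right in 9 of 9 samples, and Hoxa9 is highest on the right in 9 of 9.

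In the pair of small myeloid-primed-like clusters, Mecom, Gata2 and Prdm16 had 0 to 31 UMIs each. In the cluster of 87 myeloid-primed-like cells led by Elane, S100a8 and Mpo, 31 UMIs of Gata2 gave 25.5 pooled CPM (95% Poisson interval 17.3 to 36.2). Mcpt8, on the list of mast cell and basophil genes used here, was also among the leading genes of this cluster. There, 3 UMIs of Mecom gave 2.47 (0.510 to 7.22), and Prdm16 had 0 UMIs, for which the interval reaches 3.04 CPM. In the cluster of 90 such cells led by Ly6c2, Lgals3 and Irf8, 25 UMIs of Mecom gave 18.3 pooled CPM (11.8 to 27), 12 UMIs of Gata2 gave 8.77 (4.53 to 15.3) and 4 UMIs of Prdm16 gave 2.92 (0.797 to 7.49). Mecom was thus higher in the cluster led by Ly6c2 and Gata2 in the cluster led by Elane. These intervals cover counting error only. In the 665 megakaryocyte-primed-like cells found at a finer resolution, led by Pf4, Itga2b and Gp9, Gata2 was at 127 pooled CPM (120 to 135), Tcf15 at 25.8 (22.5 to 29.5) and Mllt3 at 53.8 (48.9 to 59.0). Cells of the nuclear RNA cluster, which had the lowest median UMI count of the larger clusters (6274.5), held Mecom at 209 pooled CPM (195 to 225) and Hlf at 365 (346 to 385). The larger stem-like cluster was lower, at 173 pooled CPM for Mecom and 264 for Hlf. By pooled CPM, Meis1, Gata2, Erg and Hoxa9 were also higher in the nuclear RNA cluster, and Mllt3, Prdm16 and Tcf15 were lower. Within the stem-like class, Gata2, Erg, Prdm16 and Tcf15 were higher in the larger cluster than in the MHC class II cluster in 9 of 9 samples, by 1.42-, 1.47-, 1.37- and 1.38-fold, whereas Hlf was lower there in 7 of 9.

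In aged against young stem-like cells, 3 of 9 members passed the test and all 3 were higher. They were Prdm16, Gata2 and Mllt3, against 8.8% of all genes tested in this comparison (6.41% higher and 2.39% lower). In CASIN against young stem-like cells, 6 members passed, of which Mecom, Prdm16, Gata2, Mllt3 and Tcf15 were higher and Hoxa9 was lower, against 14.8% of all genes (8.92% higher and 5.87% lower). After TMM scaling, the groups did not overlap for 2 members (Prdm16 and Gata2) in aged over young and for 3 (these and Mecom) in CASIN over young, against 11% and 13.2% of all genes. These 2 comparisons share the young samples and are not independent of each other. The members were chosen with earlier results of these data known, so the counts beside the shares of all genes are not independent evidence. All adjusted p-values of members come from edgeR's quasi-likelihood test with a batch term and Benjamini-Hochberg adjustment over 11949 genes in stem-like cells. The values of each member follow by role, and the plot of levels by sample shows them together.

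**Figure D2:**
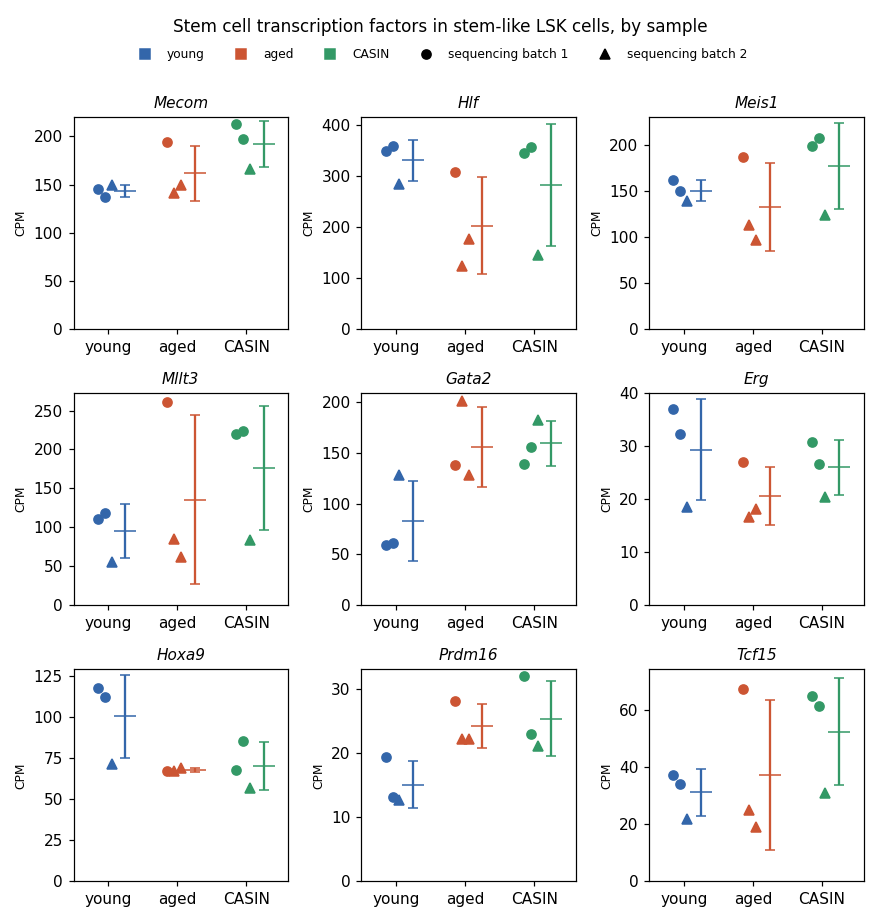
CPM of each member in stem-like cells (vertical axes, from 0, each on its own scale) by group, with 1 point per sample, circles for sequencing batch 1 and triangles for batch 2, and the mean with SD (n = 3) beside the points. The aged and CASIN points of Prdm16 all lie above the young points, and the points of Mllt3, Hlf and Tcf15 are separated by batch within each group.

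Prdm16, the PRDM factor needed for stem cell maintenance, was at 19.4, 13.2 and 12.7 CPM in young samples 1, 2 and 3, at 28.2, 22.2 and 22.2 CPM in the aged samples and at 32.0, 22.9 and 21.1 CPM in the CASIN samples. Every aged and every CASIN sample stood above every young sample, and the aged and CASIN samples overlapped. The log2 fold change was 0.86 ± 0.18 (SE) for aged over young (edgeR adjusted p = 0.0116) and 0.80 ± 0.17 for CASIN over young (edgeR adjusted p = 0.00785). Within batches 1 and 2 it was 0.88 and 0.85 for aged over young and 0.79 and 0.81 for CASIN over young, so that its size was nearly the same in both. Without aged sample 1 the aged over young value was 0.85 with an edgeR adjusted p of 0.0940, and without young sample 2 it was 0.72 (edgeR adjusted p = 0.050, just over the threshold).

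Mecom, its relative, was at 145, 137 and 149 CPM in the young samples, 194, 142 and 149 CPM in the aged samples and 213, 197 and 167 CPM in the CASIN samples. The CASIN samples all lay above the young samples, whereas only aged sample 1 stood clearly above them and the other aged samples fell among them. The log2 fold change of 0.46 ± 0.11 for CASIN over young passed (edgeR adjusted p = 0.0129) and that of 0.29 ± 0.11 for aged over young did not (edgeR adjusted p = 0.131). Within batches 1 and 2 it was 0.58 and 0.24 for CASIN over young, and 0.53 and 0.02 for aged over young. The CASIN call was lost without young sample 1 or 2 or CASIN sample 1 or 3, with edgeR adjusted p of 0.0808, 0.0798, 0.0619 and 0.0506. Without aged sample 1 the aged over young value was 0.13, and without young sample 3 it was 0.47 (edgeR adjusted p = 0.0143). Young sample 3 is the only young sample of batch 2. Without it, aged and young samples share only batch 1, where aged sample 1 stands alone for its group.

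Gata2, the GATA factor of stem and progenitor cells, was at 58.9, 60.9 and 128 CPM in the young samples, 138, 201 and 128 CPM in the aged samples and 139, 156 and 183 CPM in the CASIN samples. The young samples of batch 1 were far below all others, and young sample 3 of batch 2 was level with aged sample 3, the lowest sample from aged mice. The log2 fold change was 0.87 ± 0.20 for aged over young (edgeR adjusted p = 0.0174) and 1.07 ± 0.19 for CASIN over young (edgeR adjusted p = 0.00397). Within batches it was 1.27 and 0.37 for aged over young and 1.33 and 0.59 for CASIN over young. The aged call was lost without aged sample 1 (0.67, edgeR adjusted p = 0.167), aged sample 2 (0.77, 0.0542), young sample 1 (0.75, 0.0787) or young sample 2 (0.80, 0.0707), and the CASIN call held without any single sample (largest edgeR adjusted p = 0.0281).

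Erg, the ETS factor, was at 37.0, 32.4 and 18.6 CPM in the young samples, 27, 16.7 and 18.2 CPM in the aged samples and 30.8, 26.8 and 20.5 CPM in the CASIN samples. The samples of batch 2 were the lowest in each group and the groups overlapped. Neither the log2 fold change of -0.23 ± 0.14 for aged over young (edgeR adjusted p = 0.338) nor that of -0.10 ± 0.13 for CASIN over young (edgeR adjusted p = 0.640) passed.

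Hoxa9 was at 118, 112 and 71.6 CPM in the young samples, 67.1, 67.1 and 69.4 CPM in the aged samples and 68.0, 85.8 and 57.0 CPM in the CASIN samples. The young samples of batch 1 were the highest, and young sample 3 was within a few CPM of the aged samples. The log2 fold change of -0.46 ± 0.14 for CASIN over young passed (edgeR adjusted p = 0.0401) and that of -0.38 ± 0.15 for aged over young did not (edgeR adjusted p = 0.139). Within batches it was -0.55 and -0.24 for CASIN over young and -0.71 and -0.02 for aged over young. The CASIN call was lost without young sample 1 or 2 or CASIN sample 1 or 3, with edgeR adjusted p of 0.148, 0.142, 0.170 and 0.138. Aged over young was -0.13 without aged sample 1 and -0.58 without young sample 3 (edgeR adjusted p = 0.0251). In the latter setting, aged and young samples share only batch 1.

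Meis1, the partner of HOX proteins, was at 162, 150 and 139 CPM in the young samples, 186, 113 and 96.8 CPM in the aged samples and 199, 208 and 123 CPM in the CASIN samples. In batch 1 the aged and CASIN samples were above the young samples, and in batch 2 they were below young sample 3. The log2 fold changes of 0.02 ± 0.14 for aged over young (edgeR adjusted p = 0.959) and 0.25 ± 0.13 for CASIN over young (edgeR adjusted p = 0.235) did not pass, and within batches 1 and 2 the former was 0.33 and -0.36. Without young sample 3 the latter was 0.45 (edgeR adjusted p = 0.0125), but CASIN and young samples then share only batch 1.

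Mllt3, the reader of acylated histones, was at 111, 119 and 55.4 CPM in the young samples, 261, 85.0 and 61.6 CPM in the aged samples and 220, 224 and 83.9 CPM in the CASIN samples. Pooled over batches the groups overlapped, but within each batch every aged and every CASIN sample exceeded every young sample. The log2 fold change was 0.90 ± 0.16 for aged over young (edgeR adjusted p = 0.00653) and 0.90 ± 0.16 for CASIN over young (edgeR adjusted p = 0.00345). Within batches 1 and 2 it was 1.25 and 0.44 for aged over young and 0.98 and 0.68 for CASIN over young. Of the single samples left out, only aged sample 1 ended the aged call (0.59, edgeR adjusted p = 0.114). It is the only aged sample of batch 1, so without it aged and young samples share only batch 2. The CASIN call held without any single sample (largest edgeR adjusted p = 0.0275).

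Hlf, the PAR bZIP factor, was at 348, 359 and 284 CPM in the young samples, 308, 123 and 176 CPM in the aged samples and 344, 356 and 145 CPM in the CASIN samples. The 3 samples from aged mice in batch 2 were the lowest, whereas in batch 1 the samples of the 3 groups were close to each other. The log2 fold changes of -0.46 ± 0.18 for aged over young (edgeR adjusted p = 0.134) and -0.29 ± 0.17 for CASIN over young (edgeR adjusted p = 0.298) did not pass. Within batch 1 they were -0.13 and 0.02, and within batch 2, where young sample 3 stands alone for its group, -0.90 and -0.89. Without that sample the aged over young value was -0.08.

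Tcf15, the bHLH factor of quiescent stem cells, was at 37.3, 34.2 and 21.9 CPM in the young samples, 67.4, 25.0 and 19.1 CPM in the aged samples and 64.9, 61.4 and 30.7 CPM in the CASIN samples. Within each batch the CASIN samples were above the young samples, and among the aged samples only number 1 stood well above its batch's young samples. The log2 fold change of 0.80 ± 0.17 for CASIN over young passed (edgeR adjusted p = 0.00890) and that of 0.62 ± 0.18 for aged over young did not (edgeR adjusted p = 0.0548). Without aged sample 1 the latter was 0.20 and without young sample 3 it was 0.81 (edgeR adjusted p = 0.0113). With young sample 3 left out, aged and young samples share only batch 1. The CASIN call was lost without young sample 1, young sample 2 or CASIN sample 3, with edgeR adjusted p of 0.0573, 0.0575 and 0.0537.

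All 9 members differed between batches in stem-like cells, against 70.9% of all genes, with Mllt3 2.86-fold, Tcf15 2.33-fold, Hlf 1.91-fold, Erg 1.64-fold and Meis1 1.56-fold higher in batch 1, and Gata2 1.39-fold higher in batch 2. The 7 immediate early genes listed (Fos, Fosb, Jun, Jund, Dusp1, Klf4 and Ier2) summed to 6465 to 11038 CPM in batch 1 and 1023 to 2326 CPM in batch 2 in these cells, and the 6 nuclear RNA genes to 20557 to 24803 and 28437 to 42602 CPM. These sums also differed between the groups. Within each batch both were higher in every aged and CASIN sample than in every young sample. In batch 1 the nuclear RNA sums were 20557 and 20626 CPM in young, 24803 CPM in aged and 22892 and 24472 CPM in CASIN samples. In batch 2 young sample 3 was at 28437 CPM, the aged samples were at 30210 and 42602 CPM and CASIN sample 3 was at 33268 CPM. The part of either list in the members' values was not tested. Without the batch term, 0 members passed in either comparison with young samples by the edgeR test. Without aged sample 1, 0 members passed in aged over young, and without young sample 3, 6 passed. Aged sample 1 is the only aged sample of batch 1, so without it aged and young samples share only batch 2. Likewise, young sample 3 is the only young sample of batch 2, so without it these groups share only batch 1. The share of all genes passing is not given with a sample left out. These counts therefore cannot be read as a result about the members. The 12 cycling genes listed summed to 201 to 293 CPM in young, 39.5 to 183 CPM in aged and 40.6 to 71.4 CPM in CASIN stem-like cells, so that every young sample was above every sample from aged mice. The 8 megakaryocyte-primed genes listed ranged from 432 to 859 CPM in the young, from 721 to 1076 CPM in the aged and from 696 to 1201 CPM in the CASIN group, and within each batch every aged and CASIN sample was above the young samples. Their part in the members' values was not tested either. Markers of mature or other cells had summed CPM in stem-like cells of 20.2 to 118 for lymphocytes, 3.03 to 17.1 for red cell precursors, 8.12 to 99.8 for endothelial and stromal cells (highest in young sample 3) and 0.991 to 4.44 for mast cells and basophils.

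No member differed between CASIN and aged samples past the threshold. In CASIN against aged samples, 0 of 9 members passed edgeR's quasi-likelihood test in stem-like cells (0% of all genes called). By the same test, 0 had an unadjusted p under 0.05 (2.69% of all genes). DESeq2 called 0 members, but its share of all genes is not given, so that count is no result about the members. The log2 fold changes in stem-like cells ran from -0.09 ± 0.14 for Hoxa9 to 0.23 ± 0.14 for Meis1, with Mllt3 at 0.00 ± 0.16. Across all LSK cells and in multipotent-like cells 0 members had an unadjusted p under 0.05 (3.22% and 4.89% of genes), and of the 8 members tested in lymphoid-primed-like cells 1 did (5.44% of genes), Erg with a log2 fold change of 0.49 ± 0.20 (edgeR adjusted p = 0.903). The SE bounds what could be seen, and these values do not show the groups to be alike. It was 0.11 to 0.19 in stem-like cells. It reached 0.29 in all LSK and in multipotent-like cells (Tcf15 in both) and 0.36 in lymphoid-primed-like cells (Prdm16). This comparison shares the aged samples with aged over young.

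**Figure D3:**
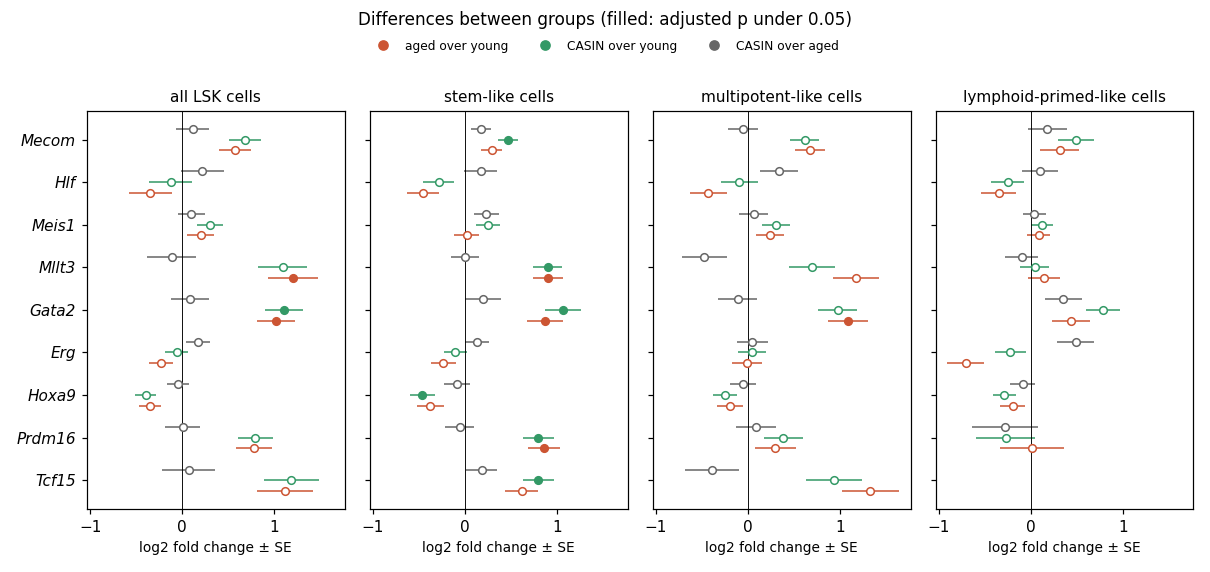
Log2 fold changes with SE (horizontal axis) of each member for aged over young, CASIN over young and CASIN over aged, in all LSK cells and in 3 classes. Filled points have an edgeR adjusted p under 0.05, as for Gata2 in aged over young in all LSK, stem-like and multipotent-like cells, and no CASIN over aged point is filled. Tcf15 has no point in lymphoid-primed-like cells, where it was not tested.

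In all LSK cells together, Mllt3 (1.20 ± 0.27, edgeR adjusted p = 0.0429) and Gata2 (1.02 ± 0.21, edgeR adjusted p = 0.0302) exceeded the young level in aged samples, 2 of 9 members against 4.1% of genes (3.59% higher). Gata2 alone passed for CASIN over young (1.10 ± 0.21, edgeR adjusted p = 0.0231), against 4.27% of genes (3.8% higher). Gata2 was at 35.6, 34.9 and 60.2 CPM in the young, 100.3, 101 and 69.2 CPM in the aged and 81.2, 94.1 and 103 CPM in the CASIN samples, so that all samples from aged mice were above all young samples. Groups did not overlap for 9.74% of genes in aged over young and 11.3% in CASIN over young. Mllt3 ran from 27.4 to 40.1 CPM in the young and from 31.4 to 150 CPM in the aged samples, so that these groups overlapped. Its aged over young log2 fold change was 1.96 within batch 1 and 0.38 within batch 2. The aged over young calls passed in 9 of 20 alternatives for Mllt3 and in 11 of 20 for Gata2. Both were lost without young sample 1 (Mllt3 1.04, edgeR adjusted p = 0.155, and Gata2 0.93, 0.116), young sample 2 (1.10, 0.156, and 0.94, 0.116), aged sample 1 (0.59, 0.140, and 0.69, 0.133), aged sample 2 (1.29, 0.0556, and 0.99, 0.0582) or CASIN sample 1 (1.20, 0.0824, and 1.03, 0.0592), and that of Mllt3 also without CASIN sample 2 (0.0605) or 3 (0.0597). The Gata2 call in CASIN over young was lost without young sample 1 (1.02, edgeR adjusted p = 0.118), young sample 2 (1.02, 0.112) or CASIN sample 1 (1.16, 0.0699), 2 (1.05, 0.0545) or 3 (1.12, 0.109). A sum over all LSK cells moves with the make-up of the sample as well as with the level per cell, and the stem-like share given above was higher in aged and CASIN samples; its part in these values was not tested.

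In multipotent-like cells, aged samples had more Gata2 than young samples (log2 1.09 ± 0.22, edgeR adjusted p = 0.0453), the only 1 of 9 members to pass, against 0.94% of genes (0.828% higher). It was at 34.1, 35.1 and 44.8 CPM in the young, 98.7, 78.4 and 54.7 CPM in the aged and 60.7, 89.1 and 71.2 CPM in the CASIN samples, with no overlap between young and either of the other groups (6.57% and 5.8% of genes). The Gata2 call passed in 9 of 22 alternatives. With a marker gate in place of clusters the log2 fold change was 0.06 (edgeR adjusted p = 0.985). That gate held 788 cells, of which 389 were among the 4387 multipotent-like cells, and 22 cells in young sample 3. It is thus a smaller and in part different set of cells. The call was also lost without young sample 1 (0.98, edgeR adjusted p = 0.175), young sample 2 (1.03, 0.154), aged sample 1 (0.76, 0.169), aged sample 2 (1.05, 0.0643) or any 1 CASIN sample (1.06 to 1.10, 0.0516 to 0.0597), with Gata2 higher in aged samples each time. For CASIN over young, 0 members passed by edgeR (4 at an unadjusted p under 0.05 against 11.7% of genes, and 2 by DESeq2), against 0.19% of genes, with Gata2 at 0.97 ± 0.21. No share of all genes is given for DESeq2, so its count cannot be read as more than usual. In lymphoid-primed-like cells, 0 of 8 members tested passed by edgeR for aged over young or CASIN over young, against 0.159% and 0.0654% of genes. At an unadjusted p under 0.05 there were 1 and 3 members, against 8.39% and 5.72% of genes by edgeR. DESeq2 called 0 in both, again without a share of all genes. Tcf15 was too low to be tested.

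Whether the age difference varied between classes was tested as an interaction. For stem-like minus lymphoid-primed-like cells, 0 of 9 members passed by edgeR's quasi-likelihood test, against 3.61% of genes, and 2 had an unadjusted p under 0.05. The difference of log2 fold changes was 0.86 ± 0.33 for Prdm16 (edgeR adjusted p = 0.173) and 0.66 ± 0.23 for Mllt3 (edgeR adjusted p = 0.116). For stem-like minus multipotent-like cells, 0 passed the edgeR test against 0.404% of genes (4 at an unadjusted p under 0.05), with Prdm16 at 0.58 ± 0.24 (edgeR adjusted p = 0.404) and Tcf15 at -0.70 ± 0.22 (edgeR adjusted p = 0.187). For CASIN over aged, 0 passed in either pair by edgeR (1 and 3 at an unadjusted p under 0.05), against 0% and 0.00808% of genes, with Mllt3 at 0.49 ± 0.15 for stem-like minus multipotent-like cells (edgeR adjusted p = 0.696). The shares of genes in this paragraph are for adjusted calls. No share of all genes is given at an unadjusted p under 0.05, so those counts cannot be read as more than usual.

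Counted per cell, the share of cells with a UMI of a member depended on depth. With every cell thinned to 4000 UMIs, which left out 19 young, 60 aged and 48 CASIN cells of the 3 classes, Hlf had a UMI in 56.0% ± 15.3 (SD, n = 9) of stem-like, 53.3% ± 6.88 of multipotent-like and 32.3% ± 6.52 of lymphoid-primed-like cells, and Mecom in 46.7% ± 6.23, 32.3% ± 6.37 and 20.7% ± 6.73. Gata2 was seen in 38.9% ± 9.57, 22.0% ± 6.87 and 7.17% ± 2.46 of the cells of these classes, and Tcf15 in 14.2% ± 6.42, 5.21% ± 3.76 and 0.600% ± 0.241. Without thinning, Gata2 was seen in 65.3% ± 11.5, 44.7% ± 7.13 and 18.8% ± 3.84 of them. Hlf was then seen in 78.3% ± 16.6, 80.3% ± 7.26 and 59.7% ± 8.60, so that its mean was no longer highest in stem-like cells. For comparison, 121 myeloid-primed-like cells were thinned in the same way (median 20383 UMIs before thinning). Gata2 had a UMI in 4.13% of them (95% Wilson interval 1.78 to 9.31) and Mecom in 7.44% (3.96 to 13.5). Tcf15 had a UMI in 0 of the 121 cells, for which the Wilson interval reaches 3.08%. The lymphoid-primed-like shares of Gata2 and Tcf15 fall within these limits. The myeloid-primed-like cells held Gata2 themselves, at 25.5 pooled CPM in the cluster led by Elane against 16.9 in lymphoid-primed-like cells. They are thus no measure of background for Gata2, and the comparison cannot tell whether these low shares are expression.

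**Figure D4:**
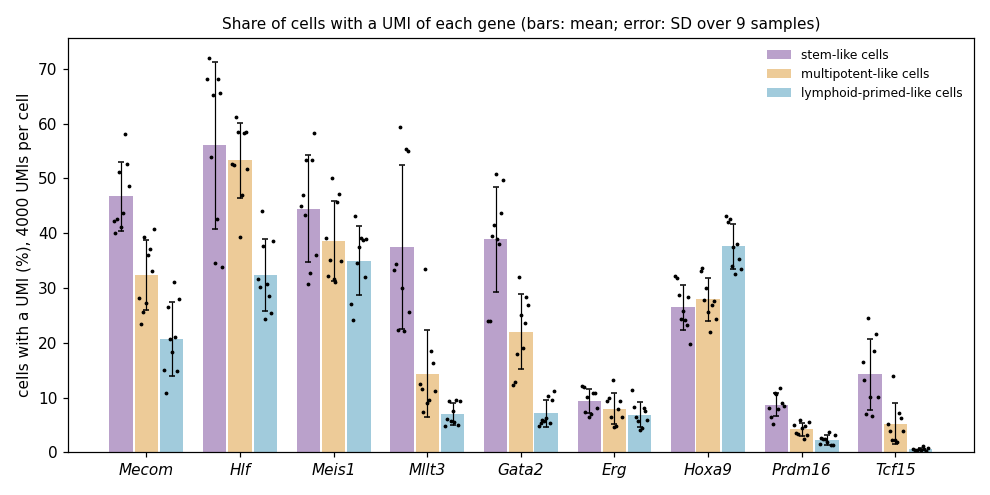
Share of cells with at least 1 UMI of each member (vertical axis, percent, from 0) after thinning to 4000 UMIs per cell, in stem-like, multipotent-like and lymphoid-primed-like cells. Bars are means over 9 samples, error bars the SD and dots the samples; Hoxa9 has its tallest bar in lymphoid-primed-like cells and the other members in stem-like cells.

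After the same thinning, a stem-like cell had a UMI of on average 2.82 ± 0.476 of the 9 members (SD over 9 samples). The mean was 2.06 ± 0.343 for a multipotent-like cell and 1.5 ± 0.173 for a lymphoid-primed-like cell. These means hold for the thinned depth only. The share of thinned cells with no UMI of any of the 9 was 3.46% ± 2.35, 10.9% ± 3.47 and 20.1% ± 5.53. Between groups, the stem-like share with Prdm16 was 6.61% ± 1.47 in young, 9.81% ± 1.68 in aged and 9.76% ± 1.71 in CASIN samples (n = 3 each), and the share with Hoxa9 was 30.9% ± 1.96, 24.7% ± 0.908 and 23.8% ± 4.32. A two-sided exact permutation test of 3 against 3 samples cannot give a p below 0.1, so these shares are given as values with no call.

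Genes that act with the members were taken from lists. Of 13 HOX and MEIS cofactors and KMT2A complex genes, 7 rose and 1 fell in aged against young stem-like cells, where 6.41% of all genes rose and 2.39% fell, with a median log2 fold change of 0.47 against 0.01 over all genes. Among those that rose were Meis2 (2.45 ± 0.49), a paralog of Meis1, Hoxb5 (1.23 ± 0.25), a homeodomain protein, and Pbx3 (1.13 ± 0.22), a DNA-binding partner of HOX proteins. Of 12 other stem cell regulators 6 rose and 0 fell, against the same 6.41% and 2.39% of all genes (median 0.50), among them Ndn (1.14 ± 0.20), Hes1 (1.10 ± 0.26), Mycn (0.78 ± 0.14) and Nkx2-3 (0.78 ± 0.17). Of 9 complex partners such as Tal1, Lyl1, Lmo2 and Runx1 only Fli1 rose (0.66 ± 0.13).

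Lineage factors made up another list. Of 18 listed, 14 were tested in aged against young stem-like cells, of which 2 rose and 4 fell, against 6.41% and 2.39% of all genes (median -0.29). On the log2 scale, Cebpa, the myeloid C/EBP factor, fell by 1.60 ± 0.44. Gfi1, a transcriptional repressor needed in granulocyte development, fell by 1.11 ± 0.24. Spi1 (PU.1) fell by 0.81 ± 0.14 and Cebpb rose by 0.86 ± 0.19. By the same edgeR test, 0 genes of these lists passed in CASIN over aged. For CASIN over young in stem-like cells, where 8.92% of all genes rose and 5.87% fell, the counts were 7 rose and 1 fell of 13 HOX cofactors, 1 rose and 0 fell of 9 complex partners, 6 rose and 0 fell of 12 stem cell regulators, and 3 rose and 6 fell of 14 lineage factors. Of 13 tested family members of the 9 genes, 3 were higher with age and 0 lower (Ets1, Fli1 and Gata3) against 6.41% and 2.39% of all genes, and 3 were higher and 1 lower in CASIN over young against 8.92% and 5.87%, of which Fli1 and Gata3 also stand in other lists. These lists were chosen with earlier results of these data known and are not independent evidence of direction.

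Over 87 sums of subset and sample, the genes with the pattern most like each member were ranked by the Pearson correlation of log2(CPM + 1) after centring on each sample, among genes of at least 20 mean CPM. The points share libraries and depth, so the values are a description. Gata2 was most like Scarf1 (r = 0.95), Esam (0.94) and Tie1 (0.94), and Tcf15 most like Pdzk1ip1 (0.94), Cd63 (0.92) and Grb10 (0.91). Mecom was most like Klf9, Tgm2 and Itga6 (0.90 each), and it was itself among the 3 most like genes of Meis1 (0.86), Mllt3 (0.90) and Prdm16 (0.84). Hoxa9 had lower values with its nearest genes, Stk17b (0.72), St8sia4 (0.71) and Rgs2 (0.69), and was negatively related to Gata2 (-0.48) and Tcf15 (-0.40).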

How the data were processed

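LSK bone marrow cells of 9 samples were sequenced by the 3′ 10x method. The deposited values are raw UMI counts per gene and cell, which the authors made with Cell Ranger 3.1.0 against mm10. The surface antibody part of the study was not analysed here.

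Cells with 1000 to 40000 UMIs, at most 6000 genes and at most 10% mitochondrial UMIs were kept. Kept cells also had a log gene count within 0.4 of its regression line on log UMIs. They were integrated in Seurat 5.3.0 on 2991 genes without the 9 members, with the correction applied to 35 principal components, and clustered at resolution 0.4. Scrublet marked 67 cells (0.423%), too few to have worked, so none were removed. UMIs were summed per sample and class and tested with edgeR 4.0.16 (quasi-likelihood, TMM, filterByExpr, group and batch over all 9 samples, Benjamini-Hochberg adjusted p under 0.05), after a check on simulated data. DESeq2 1.42.0 was an alternative. Sums in stem-like cells held 3378401 to 9081145 UMIs. Poisson and Wilson intervals are at 95%. The named genes were the 9 members and listed related genes. Members and lists were chosen with earlier results of these data known. The value of 1 listed gene is not reported here.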

Additional observations from a re-analysis of the deposited data

How the results depend on the processing

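Counts of members passing are given here as aged over young, then CASIN over young. A setting can also change how many of all genes pass, and that share is not given for most settings. The counts therefore show how the calls depend on the setting, and not whether members stand out from other genes. They were 2 and 1 in all LSK cells, 3 and 6 in stem-like and 1 and 0 in multipotent-like cells. Without the filter on low counts they were 5 and 5 in LSK and 5 and 4 in multipotent-like cells, with 1 in lymphoid-primed-like cells for CASIN over young and 1 for the stem-like minus lymphoid-primed-like difference. Without the batch term they were 0 and 0 in LSK and in stem-like cells, and 0 for aged over young in multipotent-like cells. With only the 2 groups compared they were 0 and 6 in LSK and 0 and 4 in multipotent-like cells, and with DESeq2's Wald test 5 and 6, and 4 and 2. A mitochondrial limit of 5% gave 0 and 0 in LSK cells and 2 for aged over young in multipotent-like cells. Thinning to 4000 UMIs gave 4 for CASIN over young in LSK cells and 2 and 1 in multipotent-like cells. Leaving out cells with shared barcodes gave 2 for CASIN over young in LSK cells. A marker gate in place of clusters gave 5 in stem-like and 0 in multipotent-like cells for aged over young. Leaving out the highest doublet scores gave 0 for aged over young in multipotent-like cells, and resolution 0.8 gave 3 and 1. The settings on shared barcodes and doublet scores, and one without the MHC class II cluster, were chosen after seeing the data. The cause was not tested in any of these.

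Correlations of the deviations of same-numbered samples ran from -0.70 to 0.89. Pairs within a batch were at 0.71 to 0.89 and pairs from different batches at -0.70 to -0.53. The values followed the batch and cannot tell whether same-numbered samples pair. With the replicate block, 0 and 2 members passed in LSK cells and 1 in stem-like cells for aged over young. Leaving out each sample in turn, counts ran from 0 to 5 and 0 to 7 in LSK, 0 to 6 and 3 to 7 in stem-like and 0 to 3 and 0 to 4 in multipotent-like cells, and 0 to 1 for the difference. CASIN over aged gave 0 members in every alternative run. Over all genes, stem-like calls fell from 1052 and 1767 to 12 and 12 without the batch term, and aged over young gave 541 with the block and 506 with 2 groups.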
